A study of Homo sapiens with 29 samples.

Results

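The genes described here are small non-coding RNA genes of HEK293 cells, a human embryonic kidney cell line, and they were chosen by name. They comprise every gene with a row in the knockdown gene table, or with a window in any of the 3 hnRNPA1 binding lists, whose symbol begins with SNORD, SNORA, SCARNA, RNU or RNVU, or with MIR followed by a digit and without the host-gene ending. The rule found 143 genes of the 17789 in the series: 31 box C/D small nucleolar RNAs (snoRNAs), 50 box H/ACA snoRNAs, 13 small Cajal body RNAs (scaRNAs), 28 small nuclear RNAs (snRNAs) and 21 microRNAs. No measured value entered the choice, but a window or a row was required.

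The series holds 29 samples of this cell line. In 8 of them total RNA was sequenced, 4 from cells given siRNA against hnRNPA1 and 4 from cells given control siRNA. Whether the 4 samples of a group are separate cultures is not stated in the labels, and the spread that a p-value is set against may therefore be technical only. No further siRNA against the gene and no rescue is labelled, so an effect of the loss of the protein and an off-target effect cannot be told apart. The other 21 are RNA immunoprecipitation (RIP) libraries of untreated cells, with RNA recovered on hnRNPA1 antibody or normal IgG: 3 and 3 from whole-cell lysate, 4 and 4 from cytosol, and 4 and 3 from mitochondria. For these, the authors' deposited lists give 1 set of 500-base windows per compartment with a gene, a signal value, a p and a q, and no value per library. Their depth is unknown and no replicate spread can be given. All libraries were made with a stranded total RNA kit, and no library of size-selected small RNA is among the samples.

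Box C/D snoRNAs guide 2′-O-methylation and box H/ACA snoRNAs guide pseudouridylation, mostly of ribosomal RNA in the nucleolus, while scaRNAs guide the same modifications on spliceosomal snRNAs in Cajal bodies. Most human snoRNAs and many scaRNAs are cut out of introns of a host gene, snRNAs are made from their own promoters, and microRNAs are excised from longer transcripts by Drosha and Dicer and loaded on Argonaute proteins. hnRNPA1 is a nuclear RNA-binding protein of the splicing machinery that shuttles to the cytoplasm, binds UAGGG-like motifs and is known to bind the precursors of certain microRNAs.

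The sequences below are those of 4 of the 5 microRNA genes with a whole-cell window (all but MIR7705), of the 3 microRNA genes with the highest signal values in the cytosolic list, and of MIR3651, whose window nearly coincides with that of a snoRNA. They are mature sequences from RefSeq (GRCh38.p14), written 5′ to 3′ with the seed, bases 2 to 8, in capitals. The first 5 belong to genes of the whole-cell list and the other 6 to genes of the cytosolic list.
hsa-miR-198: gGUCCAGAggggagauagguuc
hsa-miR-4709-5p: aCAACAGUgacuugcucuccaa
hsa-miR-4709-3p: uUGAAGAGgaggugcucuguagc
hsa-miR-3661: uGACCUGGgacucggacagcug
hsa-miR-1244: aAGUAGUUgguuuguaugagaugguu
hsa-miR-3064-5p: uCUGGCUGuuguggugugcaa
hsa-miR-3064-3p: uUGCCACAcugcaacaccuuaca
hsa-miR-6797-5p: aGGAGGGAaggggcugagaacagga
hsa-miR-6797-3p: uGCAUGACccuucccuccccac
hsa-miR-4273: gUGUUCUCugauggacag
hsa-miR-3651: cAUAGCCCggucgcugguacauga
Of the 21 microRNA genes with a window, 19 matched at least 1 mature sequence, which gave 29 mature sequences with 29 distinct seeds, so no seed was shared. The 5-letter motif UAGGG, searched on the RNA strand, occurred in 0 of the 16 hairpins that matched, against 90 of all 1560 hairpins in the RefSeq table (5.77%). That says only that these letters are not in these hairpins.

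In the whole-cell list 22 of the 143 genes had a window, in the cytosolic list 95 gene IDs (94 symbols) and in the mitochondrial list 0. These are 0.169% of 13007, 6.25% of 1519 and 0% of 1672 windows. Set against all annotated genes with such names, whether expressed or not, 0.521% of 4225 had a window in the whole-cell list, where the share over all 62700 annotated genes was 11.1%. In the cytosolic list the share was 2.25%, against 2.1% over all annotated genes, which is close to that background, and in the mitochondrial list, where no window is named for one of these genes, it was 0, against 1.84%. The classes differed in these shares. Of the 25 annotated scaRNA genes, 36.0% (9 genes) had a whole-cell window and 12.0% (3) a cytosolic one. Of 214 annotated box H/ACA genes 18.2% (39) had a cytosolic window and 0.467% (1) a whole-cell one, and of 314 box C/D genes the shares were 7.01% (22) and 1.59% (5). The snRNA genes, most of them numbered copies, reached 0.819% (15 of 1831) in the cytosolic and 0.109% (2) in the whole-cell list, and the microRNA genes 0.869% (16 of 1841) and 0.272% (5). The plot of shares by class and list shows these values. With 1 list per compartment the difference between lists has no replicate check and was not tested.

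**Figure D1:**
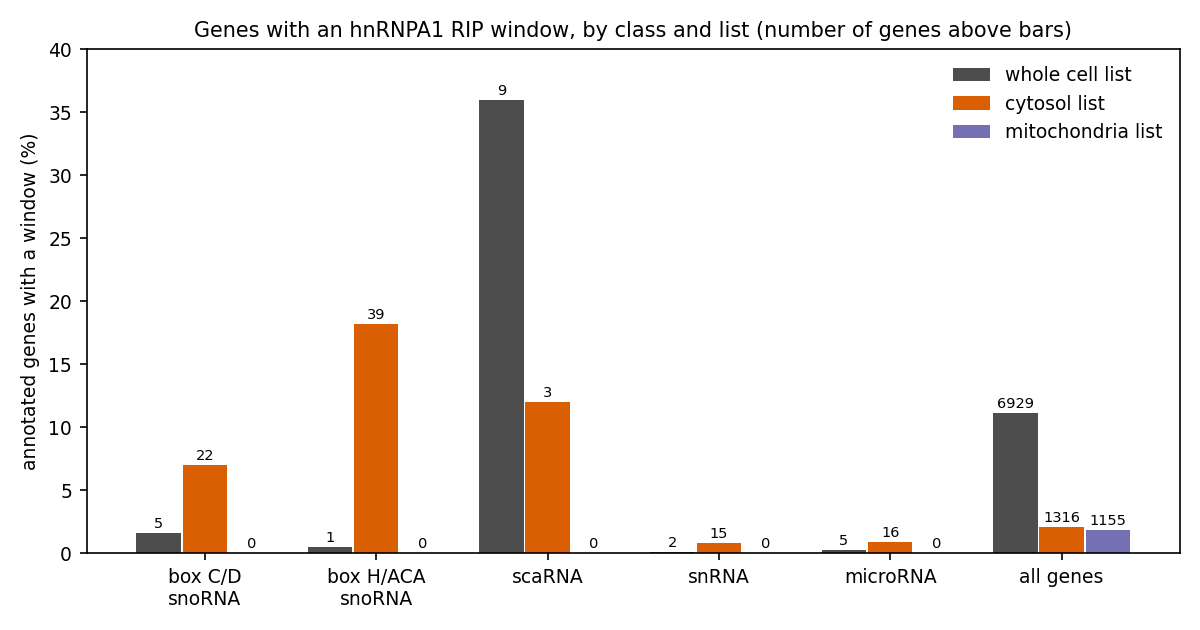
Share of annotated genes of each class with a window in each list (vertical axis, percent), with the number of genes above each bar. The scaRNA bar of the whole-cell list reaches 36.0% and the box H/ACA bar of the cytosolic list 18.2%, while all mitochondrial bars of the 5 classes are at 0.

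Within a list, a window's signal value orders it among the others, but its scale and log base are unknown from the labels and headers, so only positions within a list are compared. In the whole-cell list the 22 windows had signal values of 1.14 to 4.68 with a median of 2.5, against a median of 1.22 over the whole list, and 21 of 22 lay above that median. In the cytosolic list the 95 windows ran from 0.71 to 2.54 with a median of 1.51, against 1.22 over the list, and 56 of 95 lay above 1.22. Many of these values are tied. In the cytosolic list 48 of the 95 windows (50.5%) share their signal value and p with another window, against 15.8% of all 1519. Of these, 12 hold the median value of 1.51 with the same p. In the whole-cell list 9 of the 22 (40.9%) are tied in this way, against 6.19% of all 13007. The plot of signal values by class shows whole-cell scaRNA windows over the widest range of any class in either list.

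**Figure D2:**
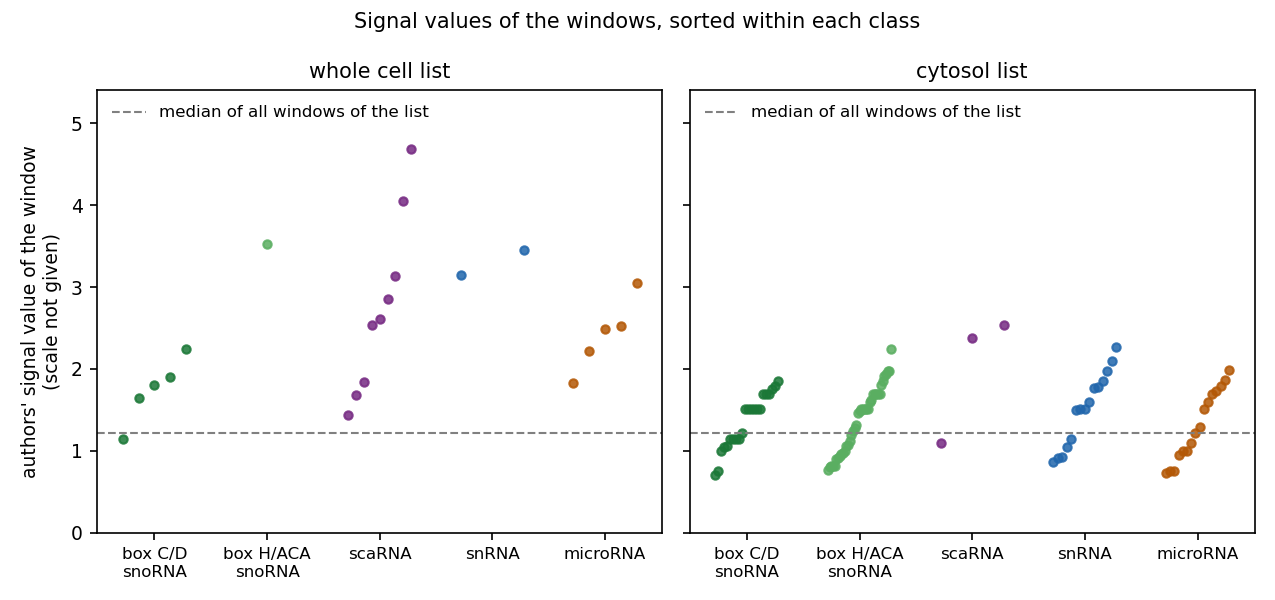
Authors' signal value of each window (vertical axis, scale not given) in the whole-cell list (left) and the cytosolic list (right), by class and sorted within each class, with the median of all windows of the list as a dashed line. In the whole-cell list 21 of 22 points lie above the line, and in the cytosolic list 56 of 95.

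The scaRNA windows included the highest single signal value of these genes in each of the 2 lists, although in the whole-cell list the scaRNA median of 2.61 was below the values of the 2 snRNA windows and the 1 box H/ACA window. Coordinates are printed as the lists give them, and no build is stated for the lists. In the whole-cell list SCARNA2, known as a guide for the U2 snRNA, had a signal value of 4.68 (chr1:109100193-109100693, plus strand). This is the highest value among the 13007 windows, and 3 windows, that of SCARNA2 included, share it with the same p. SCARNA17, known as a guide for minor and major spliceosomal snRNAs, ranked 12 with 4.05 (chr18:49814133-49814633, plus strand), and SCARNA5 ranked 99 with 3.13 (chr2:233275727-233276227, plus strand). SCARNA10 followed with 2.86, SCARNA12 with 2.61, SCARNA7 with 2.54, SCARNA21 with 1.84, SCARNA13 with 1.68 and SCARNA9 with 1.44, all above the median of the list. In 6 of these 9 windows p and q are listed at 0. The 3 scaRNA windows of the cytosolic list were those of SCARNA18B (2.54, rank 8 of 1519), SCARNA22 (2.38, rank 15), which lies in the histone methyltransferase gene NSD2, and SCARNA17 (1.09, rank 956). SCARNA17 was the only one of the 143 genes with a window in more than 1 list, and both lists place it at the same coordinates. It stood among the highest windows of the whole-cell list and below the median of the cytosolic list.

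Of the box C/D snoRNAs, 5 had a whole-cell window. SNORD3A, the U3 snoRNA that acts in cleavage of the ribosomal RNA precursor rather than in its modification, led them with 2.24 (chr17:19188016-19188516, plus strand), followed by SNORD10 with 1.90 and SNORD24 with 1.80. SNORD15B (1.65) and SNORD86 (1.14) came next, and SNORD86 was the single window of the 22 below the median of its list. In the cytosolic list SNORD42B (1.85), SNORD60 (1.79) and SNORD14C (1.75) had the highest signal values of 22 box C/D genes, none of them with a window in the whole-cell list. SNORD97 (1.05) and SNORD94 (1.00), the 2 of these 22 that also have a row in the gene table, were below the cytosolic median.

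The box H/ACA class had 1 whole-cell window, that of SNORA71A (3.53, rank 42), and 39 cytosolic ones. In signal value the cytosolic windows were led by SNORA32 (2.24, rank 27, chr11:93730979-93731479, minus strand), SNORA62 and SNORA74B (1.98 each). The last 2 share their signal value and p with other windows of the list, 7 in all. The order by p differs, since SNORA44 (1.94) had an authors' p of 6.119e-07, against 0.003391 for SNORA62 and SNORA74B. Those with a row in the gene table were SNORA22 (1.80), SNORA48 (1.51), SNORA63 (1.46), SNORA79B (1.28) and SNORA80D (0.82). SNORA50A is listed under 2 gene IDs with the same window, which makes 38 symbols for 39 IDs.

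Of the snRNAs, RNVU1-27, a variant U1 gene (3.45, rank 50), and RNU6-395P, a copy of the U6 gene (3.15, rank 93), had whole-cell windows. In the cytosolic list the U5 genes RNU5E-1 (2.27, rank 25; chr1:11908152-11908652, plus strand) and RNU5A-1 (2.10, rank 36) led, followed by the U6 copy RNU6-415P (1.98). U5 is the snRNA of the tri-snRNP that contacts both exons during splicing. The other U5 gene with a window, RNU5B-1, had 1.14. The remaining cytosolic snRNA windows belonged to 2 other kinds of major snRNA, namely RNU4-1 (1.78) and RNU2-2P (1.5), to 4 variant U1 genes (RNVU1-22 and RNVU1-34 at 1.51, RNVU1-29 at 1.05, RNVU1-31 at 0.93), to 3 more U6 copies and to 2 copies of the minor-spliceosome gene RNU4ATAC. Of the annotated genes of each kind these are 3 of 31 U5, 4 of 27 variant U1, 4 of 1276 numbered U6, 2 of 17 numbered RNU4ATAC, 1 of 71 U2 and 1 of 90 U4 genes.

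The 5 microRNA genes of the whole-cell list were MIR7705 (3.05), MIR198 (2.52; chr3:120395668-120396168, minus strand), MIR4709 (2.49; chr14:74480133-74480633, minus strand), MIR3661 (2.22) and MIR1244-1 (1.83), all above the median of the list. Of the 16 in the cytosolic list MIR3064 (1.99; chr17:64500774-64501274, minus strand), MIR6797 (1.86) and MIR4273 (1.79) had the highest signal values, and 8 of the 16 lay above the median. MIR3651 (1.6) and SNORA84 (1.91) have cytosolic windows that start 3 bases apart on chromosome 9, at 92292458 and 92292461, so the windows cover almost the same bases.

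A window is longer than the RNA it is named for. The windows begin where the gene's lowest RefSeq coordinate (GRCh38.p14) lies, to within 4 bases, for 21 of 22 whole-cell and 91 of 93 cytosolic windows with a RefSeq entry. The named gene fills 57 to 420 of the 500 bases in the whole-cell list (median 147) and 54 to 311 in the cytosolic list (median 125). The rest is sequence next to the gene, and whether the reads came from the excised small RNA, from its precursor or from the host transcript was not tested. In every one of the 22 and 95 windows p equals q, against 6.77% of 12985 and 20.0% of 1424 windows of other genes. The same holds for 95.6% of 68 whole-cell and 99.2% of 130 cytosolic windows of genes of at most 500 bases, the small RNA genes among them, against 5.7% and 8.36% of windows of longer genes. In 11 of the 22 and 1 of the 95 windows q is listed as 0, as it is in 772 of all 13007 and 12 of all 1519 windows. Where both are listed as 0, p equals q whatever the adjustment did. For the other windows of these genes the adjustment left p as it was. Identical pairs of signal value and p also recur. In the cytosolic list 12 of these windows share a signal of 1.51 with a p of 0.03176, as do 83 windows of the list in all, and 9 share 1.69 with 0.01476, as do 34 in all.

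Host genes, here RefSeq genes of the same strand that contain the small RNA gene, were found for 15 of 22 whole-cell and 59 of 95 cytosolic windows. The strand is not given for every RefSeq gene, so some hosts are missed. All 15 whole-cell hosts had a window of their own in the whole-cell list. In 5 cases both windows overlapped: RPS3 with SNORD15B, FSTL1 with MIR198, SNHG22 with SCARNA17, ATG16L1 with SCARNA5 and SNHG10 with SCARNA13. Counting any gene outside the 143, whether found as a host or not, 8 of the 22 overlap a window of the same list. The further ones are SCARNA7 with KPNA4, and SCARNA2 and SCARNA10, each with a gene listed by ID only. Counted in this way, 5 of the 95 cytosolic windows overlap one, among them RNU2-2P with WDR74. In the cytosolic list 7 of 59 windows lie in a host with a cytosolic window, and 1, that of SNORA6 in the ribosomal protein gene RPSA, overlaps it. Of the same 59, 43 lie in a host with a whole-cell window. Over all 16382 genes of the gene table, 6073 have a whole-cell window and 825 a cytosolic one. The hosts were not set against genes of like level, and these counts were not tested. Of the 95 cytosolic windows 31 overlap some window of the whole-cell list (32.6%), against 116 of 1424 cytosolic windows of other genes (8.15%), a difference given as counts and not tested. Windows of the mitochondrial list that are named for other genes overlap 2 of the 22 whole-cell windows (MIR198 with FSTL1 and SCARNA13 with SNHG10). That is 9.09%, against 1.73% of the 12985 whole-cell windows of other genes, and was not tested. Mitochondrial windows also overlap 3 of the 95 cytosolic windows (SNORA52 with RPLP2, SNORA70 with RPL10 and SNORA6 with RPSA). That is 3.16%, against 3.86% of the cytosolic windows of other genes. The cytosolic hosts include 4 small RNAs in TAF1D (SNORA1, SNORA8, SNORA25 and SNORA32), 3 in NOP56 (MIR1292, SNORA51 and SNORD110) and 2 each in EIF4A1, EIF4A2, IARS1, RPL21, RPSA and SNHG12. NOP56 encodes a core protein of the box C/D particle, and EIF4A1 and EIF4A2 encode translation initiation helicases. TAF1D encodes a factor of RNA polymerase I transcription.

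The knockdown was compared with control siRNA to ask which RNAs change when hnRNPA1 is reduced. HNRNPA1 itself stood at 6506, 6413, 7185 and 5306 normalised reads in knockdown libraries 1 to 4, against 18640, 20400, 18610 and 19350 in control libraries 1 to 4, which left 33.0% (log2 fold change -1.61, limma adjusted p = 2.2e-06). The genes of the gene table were estimated to hold 16600000 to 22100000 reads per library, and reads outside these genes are not counted. The HEK293 markers KRT8, KRT18, VIM and CDH2 were at 1522 or more normalised reads in every library, while PAX2 had 4.92 to 16.88. Of the 8 markers of other cell types COL1A1 has a row, at 26.61 to 64.89, and the lymphocyte and endothelial markers have none. In bulk RNA, fewer cells that hold an RNA and less of it per cell cannot be told apart.

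The gene table has rows for 50 of the 143 genes (9 box C/D, 15 box H/ACA, 9 scaRNA, 17 snRNA and 0 microRNA genes). Of the 116 gene IDs with a window 23 have a row, and none of the 116 sorts after the last ID of the table. Genes were tested where 4 or more libraries reached 10 normalised reads, which 42 of the 50 did: 9, 13, 8 and 12 in the order of these classes. None of the 42 changed in the knockdown at a limma adjusted p under 0.05, where 1.65% of all 15267 genes tested did (0.675% higher and 0.976% lower). At an unadjusted p under 0.05 the count was also 0 of 42, against 19.2% of all genes. The knockdown and control libraries overlapped for all 42, while they did not overlap for 11.6% of all genes. The log2 fold change was above 0 for 28 and below 0 for 14, with a median of 0.11, against 0.0 over all genes. The 42 include U1 copies with equal values, each of which is counted. Single genes ran from -0.59 (SNORA68) to 0.69 (SNORA17B).

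These RNAs varied more between libraries of 1 group than most genes did. The median residual SD of the 42 was 0.48 on the log2 scale, against 0.16 over all genes, and 40 of 42 lay above the median of genes of like level, taken in 10 bins. The median standard error of the log2 fold change was 0.26, against 0.11 over all genes. A test that misses the threshold at this spread does not show that the levels were equal. The standard errors and 95% intervals given here use limma variances, which are drawn toward those of genes of like level. For a gene with a larger spread of its own, the interval is narrower than that spread alone would give. SNORD3A, for example, had a residual SD of 0.87 and an SE of 0.43. Changes beyond the plotted intervals are therefore not excluded.

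**Figure D3:**
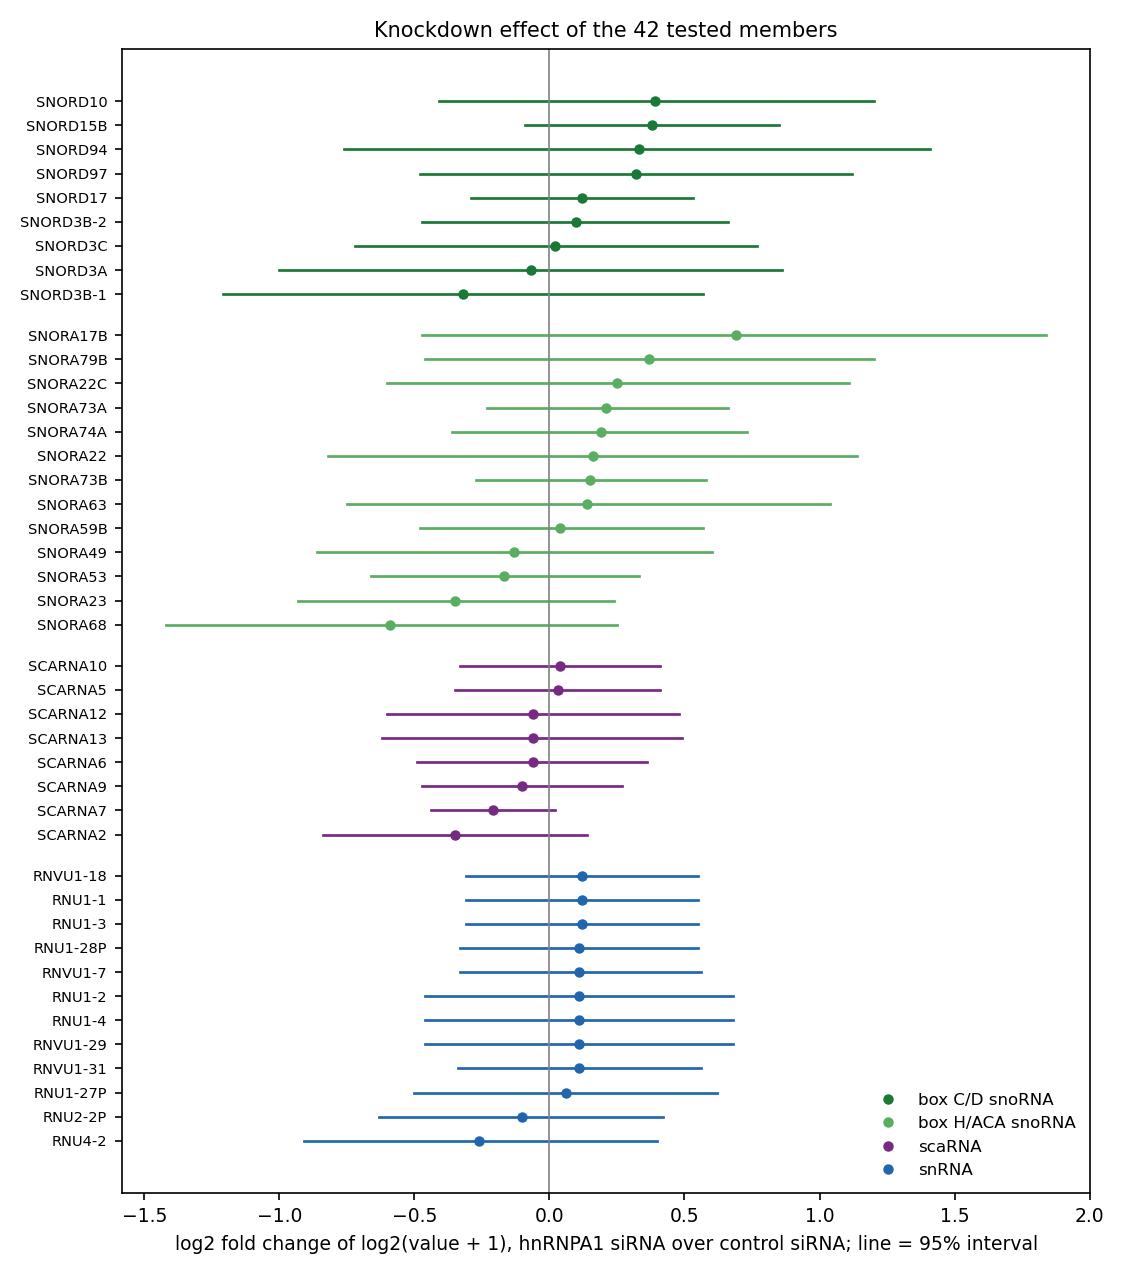
Log2 fold change of knockdown over control (horizontal axis, on the log2(value + 1) scale) with its 95% interval for each of the 42 tested genes. Genes are shown by class and sorted within each class, and the intervals use the limma variances. All 42 intervals include 0, and the shortest is that of SCARNA7, from -0.44 to 0.02.

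SNORD3A was the most abundant of these RNAs. It had 208900, 236000, 114300 and 62340 normalised reads in knockdown libraries 1 to 4, against 303200, 150300, 128800 and 72490 in control libraries 1 to 4. Both groups spread widely and overlap. The means were 155400 ± 81100 in knockdown and 163700 ± 98600 in control libraries (SD, n = 4 each), and the log2 fold change was -0.07 with a 95% interval of -1.0 to 0.86 (limma adjusted p = 0.95). SNORD3A alone took 0.347% to 1.45% of all normalised reads of a library. Per 100 bases of the RefSeq gene it averaged 71600 reads in knockdown and 75400 in control libraries. Its near-identical copies SNORD3B-1 (4957 ± 2550 in knockdown and 6274 ± 3850 in control libraries) and SNORD3B-2 (4329 ± 1760 in knockdown and 3912 ± 1210 in control libraries) came next in the class. SNORD3C had 58.87 ± 27.7 in knockdown and 56.68 ± 26.6 in control libraries. How reads were shared among these copies is not known, so their values are uncertain as values of single genes. SNORD17, with 679.8 ± 146 in knockdown and 639.0 ± 214 in control libraries, had a log2 fold change of 0.12 (95% interval -0.29 to 0.53).

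Among the less abundant box C/D snoRNAs, SNORD15B had the smallest p of the class. It stood at 39.88, 40.41, 47.67 and 42.18 in knockdown libraries, against 37.39, 45.50, 29.06 and 22.14 in control libraries. The control libraries covered a wider range, and control library 2 lay within the knockdown values. The log2 fold change was 0.38, with an SE of 0.22 and a limma adjusted p of 0.37. SNORD10 averaged 29.84 ± 16 in knockdown and 21.93 ± 10.0 in control libraries, with a log2 fold change of 0.39 (95% interval -0.41 to 1.2). SNORD97 (0.32) and SNORD94 (0.33), both with a cytosolic window, had intervals from -0.48 to 1.12 and from -0.76 to 1.41.

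The scaRNAs were abundant and had the narrowest intervals. SCARNA10, which carries both box C/D and box H/ACA elements, had 14580, 16750, 20650 and 14950 normalised reads in knockdown libraries, against 22120, 18480, 13690 and 11950 in control libraries. The knockdown values lie within the range of the control values for all 4 libraries. The log2 fold change was 0.04 (95% interval -0.33 to 0.41). SCARNA7 had 2151, 2218, 1697 and 1966 in knockdown libraries, against 2458, 2728, 2068 and 2061 in control libraries. Knockdown libraries 1 and 2 exceeded control libraries 3 and 4, so the groups overlap, although each knockdown library was below the control library of the same number. Its log2 fold change of -0.21 (SE 0.11) had the smallest limma adjusted p of the 42 genes, 0.30.

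SCARNA2 had 748.2, 1148, 572.0 and 696.5 normalised reads in knockdown libraries, against 1200, 1431, 741.2 and 710.5 in control libraries. The groups overlap, since knockdown library 2 exceeded control libraries 3 and 4. The log2 fold change was -0.35, with an SE of 0.23 and a limma adjusted p of 0.43. With the replicate number as a block, which the design does not establish as a pairing, the same fold change had an adjusted p of 0.035, in a fit that called 7.8% of all genes. SCARNA12 averaged 2054 ± 805 in knockdown and 2125 ± 739 in control libraries (log2 fold change -0.06), and SCARNA5 1892 ± 483 in knockdown and 1853 ± 460 in control libraries (0.03). SCARNA13 averaged 430.0 ± 121 in knockdown and 464.6 ± 183 in control libraries (-0.06), and SCARNA9 385.5 ± 96.7 in knockdown and 409.9 ± 83 in control libraries (-0.10). All 7 of these scaRNAs had a whole-cell window, and none changed past the threshold in the knockdown.

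**Figure D4:**
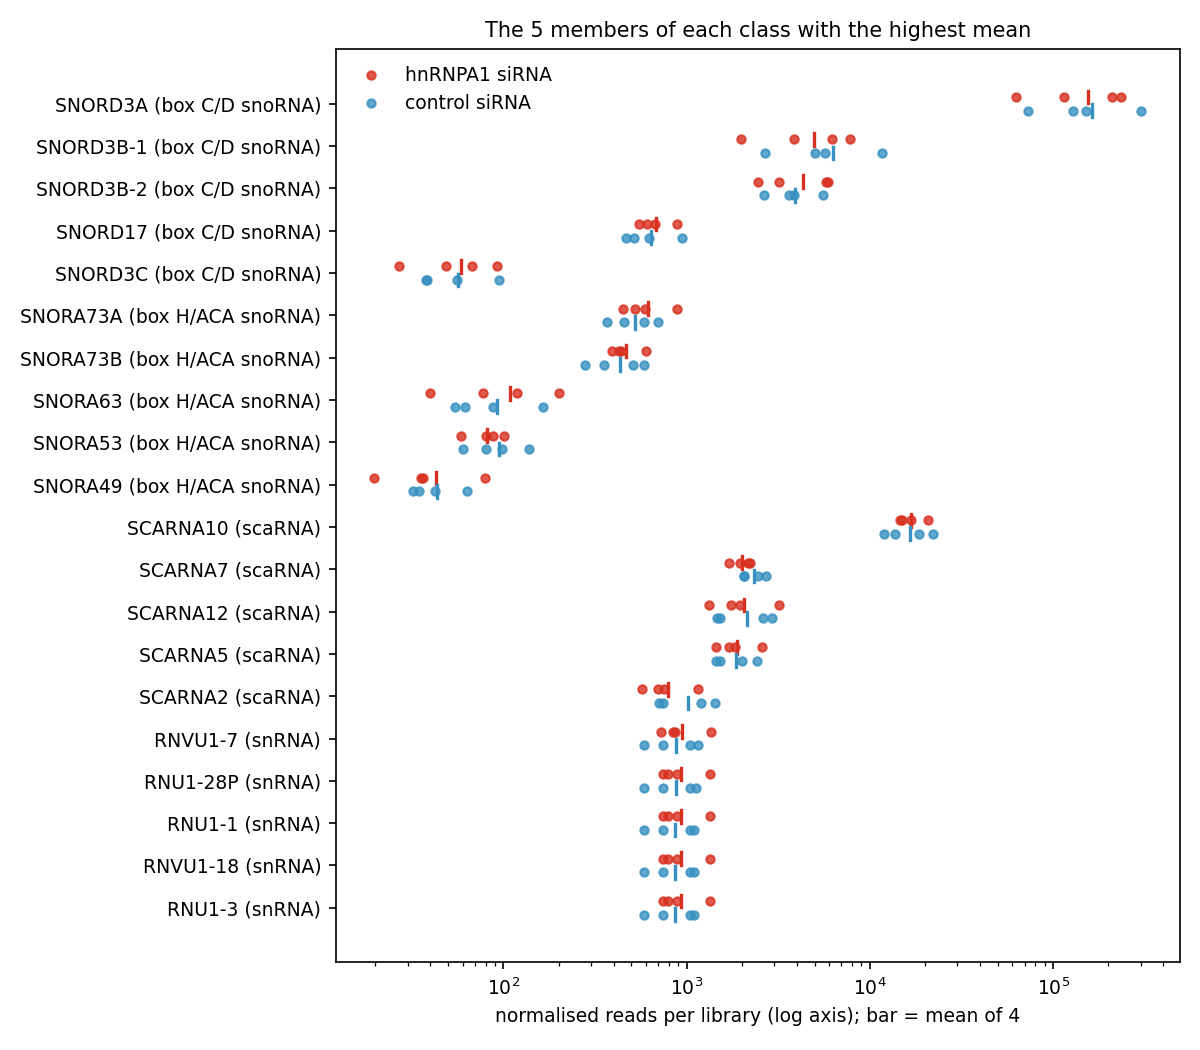
Normalised reads in each library (horizontal log axis) of the 5 tested genes of each class with the highest mean, with knockdown libraries in red above control libraries in blue and a bar at the mean of 4. SNORD3A spans 62340 to 236000 in knockdown and 72490 to 303200 in control libraries, and the groups of all 20 genes overlap.

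The most abundant box H/ACA snoRNAs were SNORA73A and SNORA73B, the U17 snoRNAs, which act in processing of the ribosomal RNA precursor. SNORA73A had 595.2, 519.8, 887.1 and 449.6 normalised reads in knockdown libraries, against 693.7, 585.8, 366.4 and 456.7 in control libraries, and SNORA73B averaged 466.0 ± 92.8 in knockdown and 431.1 ± 140 in control libraries. Knockdown library 3 was the highest of the 8 for both, control library 3 the lowest. Their log2 fold changes were 0.21 and 0.15, with intervals from -0.23 to 0.66 and from -0.27 to 0.58. SNORA63, which has a cytosolic window, averaged 108.8 ± 68.9 in knockdown and 92.16 ± 50.4 in control libraries, and SNORA53 81.57 ± 17.6 in knockdown and 94.11 ± 33.1 in control libraries. SNORA49 averaged 42.80 ± 25.5 in knockdown and 43.18 ± 14.2 in control libraries. Both groups overlap for each of the 3. The smallest p-values of the class were those of SNORA68 (log2 fold change -0.59, SE 0.39), SNORA23 (-0.35, SE 0.27) and SNORA17B (0.69, SE 0.54), with limma adjusted p of 0.44, 0.52 and 0.52. SNORA22 (0.16) and SNORA79B (0.37), both with a cytosolic window, did not pass either. SNORA80D and SNORA48 were too low to be tested under the filter. SNORA48 averaged 10.6 ± 4.94 in knockdown and 3.844 ± 4.55 in control libraries, near the floor, and the groups overlap. In the fit without a filter on low values it had the smallest limma adjusted p of the 50 genes, 0.17.

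Among the snRNA genes, copies of U1 hold values that cannot be separated. RNU1-1, RNVU1-18 and RNU1-3 have the same value in all 8 libraries (883.0, 791.6, 1334 and 740.6 in knockdown libraries, against 1098, 1039, 585.5 and 740.2 in control libraries). RNU1-28P equals them in 7 of the 8 libraries, and RNU1-2, RNU1-4 and RNVU1-29 are likewise the same in all 8. The 42 tested genes therefore hold 38 distinct sets of values. The log2 fold change of the first set was 0.12 (95% interval -0.31 to 0.55) and that of the other set 0.11 (-0.46 to 0.68), and RNVU1-7, the highest of the class, had 0.11 (-0.33 to 0.56). The U4 gene RNU4-2 averaged 14.62 ± 6.04 in knockdown and 17.05 ± 4.05 in control libraries, with a log2 fold change of -0.26 (95% interval -0.91 to 0.40). RNU2-2P (-0.10) and RNVU1-31 (0.11), both with a cytosolic window, did not pass the threshold, and RNVU1-27, RNVU1-34 and RNU4-1 were too low to be tested.

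Summed over the rows of a class, the levels of the groups overlapped in each of the 4 classes. Box C/D snoRNAs summed to 165500 ± 85300 normalised reads in knockdown and 174700 ± 104000 in control libraries (SD, n = 4 each), mostly SNORD3A, a ratio of 0.948. Box H/ACA snoRNAs summed to 1517 ± 447 in knockdown and 1378 ± 385 in control libraries (ratio 1.1), and scaRNAs to 24670 ± 3270 in knockdown and 25160 ± 6680 in control libraries (0.98). The snRNA genes summed to 7169 ± 1930 in knockdown and 6712 ± 2030 in control libraries (1.07). The snRNA sum counts equal values of gene copies more than once. Together the 50 genes took 1.28%, 1.42%, 0.869% and 0.531% of normalised reads in knockdown libraries 1 to 4, against 1.74%, 0.974%, 0.875% and 0.557% in control libraries 1 to 4. In both groups libraries 3 and 4 were below libraries 1 and 2, as they were for SNORD3A, which makes up most of the sum. The median deviation given next did not follow the number in this way, since it was high in knockdown library 3 and low in control library 3.

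Many of the genes deviated together within a library, in both groups. In control library 1 all 42 tested genes lay above their own mean over the 8 libraries, and in knockdown library 3 33 did. In control library 3 the count was 4, in control library 4 it was 6 and in knockdown library 4 it was 8. These counts take U1 copies with equal values more than once, since the 42 genes hold 38 distinct sets of values. The median deviation of the 42 on the log2 scale was 0.03, -0.01, 0.46 and -0.24 in knockdown libraries 1 to 4, against 0.39, 0.21, -0.44 and -0.29 in control libraries 1 to 4, while the median over all genes was 0.0 to 0.01 in each. The classes did not move as 1 block. In knockdown library 2 the median deviation was 0.49 for box C/D and -0.85 for box H/ACA snoRNAs, and in knockdown library 3 it was 0.35 and 0.69. The part of library preparation in this spread was not tested.

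**Figure D5:**
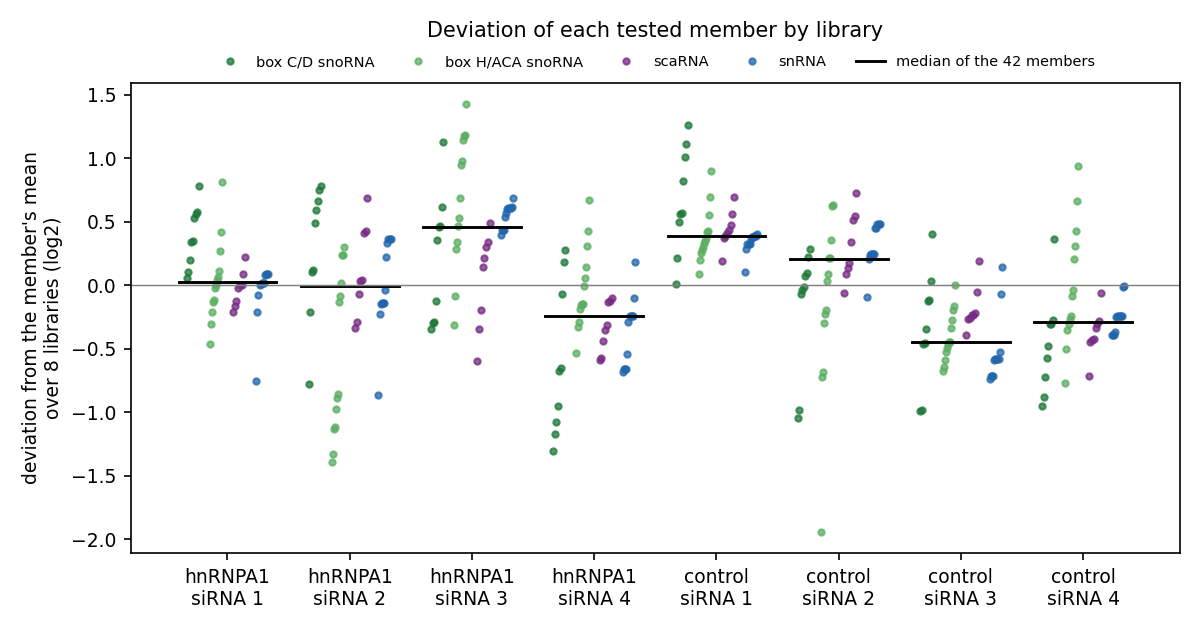
Deviation of each of the 42 tested genes from its own mean over the 8 libraries (vertical axis, log2), by library and coloured by class, with knockdown libraries left of control libraries and a black line at the median. The medians run from -0.24 to 0.46 in knockdown and from -0.44 to 0.39 in control libraries.

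The levels of genes with and without a window are given side by side. The 11 genes of the table with a whole-cell window had a median level of 905.9 normalised reads over the 8 libraries (11.29 to 159600), the 12 with a cytosolic window 18.84 (6.651 to 489.1) and the 27 with neither 389.1. Per 100 bases of the gene the medians were 216, 9.65 and 146. The median log2 fold changes in the knockdown were -0.06, 0.15 and 0.11, from 10, 8 and 24 tested genes.

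Host genes of the small RNAs were measured in the same fit. Of the 15 whole-cell hosts 1 changed, with a median log2 fold change of 0.03 over the 15, and of the 44 tested cytosolic hosts 1 changed, with a median of 0.01. These are 6.67% and 2.27% of the hosts, where 1.65% of all genes tested changed, and 1 gene in each set says little beyond that background. Both are named because of their values. NCAPD2, a condensin subunit and host of SCARNA10, rose to 3980 ± 182 normalised reads in knockdown libraries, against 3048 ± 218 in control libraries (log2 fold change 0.39, limma adjusted p = 0.023), while SCARNA10 within it had 0.04. SNHG19, a non-coding host of SNORD60, fell to 263.6 ± 40 in knockdown libraries, against 392.1 ± 58.2 in control libraries (log2 fold change -0.57, limma adjusted p = 0.044). The groups do not overlap for either gene. With all libraries rescaled to the same total their adjusted p was 0.05 and 0.06. The call of NCAPD2 was lost without knockdown library 2 or 3 or control library 1 or 4 (adjusted p up to 0.084), and that of SNHG19 without any 1 library other than knockdown library 2 (up to 0.14).

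Genes of the proteins that make, carry and process these RNAs were taken from a list of 92, of which 91 were tested. Of these, 1 was higher and 2 were lower in the knockdown, with a median log2 fold change of 0.01, where 0.675% of all genes tested were higher and 0.976% lower. AGO3, an Argonaute protein of the microRNA pathway, had 498.0, 428.8, 554.1 and 533.2 normalised reads in knockdown libraries, against 758.7, 721.3, 962.8 and 792.2 in control libraries (log2 fold change -0.68, SE 0.11, limma adjusted p = 0.0072). AGO4, another Argonaute protein, had 790.1, 713.7, 832.5 and 817.6 in knockdown libraries, against 575.7, 579.3, 638.5 and 593.9 in control libraries (log2 fold change 0.40, SE 0.08, limma adjusted p = 0.025). All 4 knockdown libraries lay below the control libraries for AGO3 and above them for AGO4.

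LSM3, a subunit of the ring that binds the end of the U6 snRNA and of the ring that acts in mRNA decay, fell to 1607 ± 55.3 in knockdown libraries, against 2077 ± 155 in control libraries (log2 fold change -0.37, SE 0.07, limma adjusted p = 0.027), with no overlap. The other members of the list did not pass the threshold. The 4 core proteins of the box C/D and the 4 of the box H/ACA particle gave 0 calls, with median log2 fold changes of 0.03 and 0.04, as did 7 Sm proteins (median -0.17), 9 genes of the SMN complex (0.01) and 19 genes of snRNA transcription and 3′ processing (0.08). Of the microRNA processing genes, 11 were tested and AGO3 and AGO4 were the 2 called, where 1.65% of all genes tested were called. With all libraries rescaled to the same total the adjusted p was 0.068 for AGO3, 0.092 for AGO4 and 0.097 for LSM3. The calls of LSM3 and AGO4 were also lost without 1 of several libraries. For LSM3 these were knockdown library 2 or 3 or control library 1, 2 or 4, with adjusted p up to 0.084. For AGO4 they were knockdown library 3 or control library 1, 2 or 4, with adjusted p up to 0.095.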

How the data were processed

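Small RNA genes were read from a gene table of 8 siRNA libraries and from 3 RIP window lists. The authors deposited the gene table as a signal of normalised reads per gene that is never negative, and the tools named for these samples, per the submitters' processing notes, were STAR 2.7.8a, Partek and DESeq2, with the build hg38 and no stated role. Only 82.5% to 84.1% of a library's low values came out as whole multiples of a common step (tolerance 0.02), so no count model was applied and the test for normalised values was used. The authors' deposited lists give each 500-base window a signal score, a p-value and a q-value. Their build, caller version and background library are not given in the labels or headers used here.

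Genes with at least 10 in at least 4 libraries (15267) were fitted with limma 3.58.1 (R 4.3.3, variance trend) on log2(value + 1), with Benjamini-Hochberg adjustment over all genes; fold changes understate those of low genes. The reads held by the genes of the gene table were estimated from the step of each library. Gene symbols were matched for 16358 of the 16382 rows. Windows were matched to RefSeq (GRCh38.p14) by symbol. The fit was also run on simulated data with independent noise at the spread typical of all genes. That setting does not cover the larger spread of the small RNA genes or their joint deviation within a library.

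The genes and lists were chosen with earlier results of these data known. Named are genes past the threshold, per class the 5 with the highest mean and the 3 with the smallest p, per class and list the 3 with the highest signal value, genes in more than 1 list, genes with both a row and a window, and pathway genes past the threshold. Alternatives were a pseudocount of 0.1, other filters and scalings, the replicate block, each library left out, and stricter windows.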

Additional observations from a re-analysis of the deposited data

Results flagged for a closer look

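Of 100 groups of 4 libraries tested for a library that stands apart, 2 held one, where chance gives about 1 in 20. SCARNA16, too low to be tested, had 11.56 normalised reads in knockdown library 3, against 0.002293, 0.01343 and 9.533e-07 in knockdown libraries 1, 2 and 4. RNU2-2P had 293.4 in control library 1, against 211.9, 215.3 and 223.3 in control libraries 2 to 4.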

How the results depend on the processing

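The count of small RNA genes changed in the knockdown was 0 under both pseudocounts, all 3 filters and all 3 scalings, and 0 to 0 with any 1 library left out (61 to 250 of all genes were called in these fits). With the replicate number as a block it was 1, SCARNA2. Deviations of same-numbered libraries correlated at 0.119, 0.292, 0.0431 and 0.234, of which 3 exceed the 0.1 that each pair had to exceed, and 5 of 8 libraries correlated best with their own number. The numbers were therefore not taken as a pairing. The block called 1191 of all genes, against 252 without it. Rescaling to the same total called 70. The sign of the log2 fold change differed in at least 1 of 14 settings for 29 of the 42 tested genes. Of the 95 cytosolic windows, 48 had a q of at most 0.005 and 56 a signal value above the list's median. The whole-cell count was 21 to 22 and the mitochondrial count 0 under the same settings. A count test was not run, because whole reads were not recovered for nearly all genes. Depth limits the genes under 10 normalised reads, and with no value per RIP library no error can be given for a window.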
